A study of Mus musculus with 3 samples.

Results

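The 10 genes described here, all of the tumour necrosis factor (TNF) superfamily, were measured in the leukocytes of the mouse aorta. They were taken by name from the 32285 genes of the reference: 5 ligands (Tnf, Ltb, Tnfsf9, Tnfsf12 and Tnfsf13b) and 5 receptors (Tnfrsf1a, Tnfrsf1b, Cd40, Fas and Tnfrsf4). All 10 were detected. CD45+ cells sorted from the aortas of 10 mice had been measured in 1 pool by CITE-seq, which reads the RNA and a panel of DNA-tagged surface antibodies from the same cell, with a further tagged antibody (hashtag) marking the mouse. Jak2WT littermates gave 5 of the mice. The other 5 were Jak2V617F Myel mice (Jak2V617F MyC in the labels), in which LysM-Cre switches on the activating V617F mutation of the kinase Jak2, found in human myeloproliferative neoplasms, mainly in myeloid cells. Of these, 3 mice had a dilated aorta (dilation replicates 1 to 3) and 2 had an aneurysm (aneurysm replicates 1 and 2). The strain background was C57BL/6, with males and females, and the age of these mice was not given in the sources used here. Cells labelled by an antibody given into the blood before death were excluded at the sort, which removed circulating cells. Whether every cell that was kept lay inside the vessel wall was not tested. The sort was steered toward equal cell numbers from both genotypes, so the number of cells per mouse does not measure infiltration. The 3′ tags of Jak2 do not read the mutated position, and the Jak2 level therefore checks no genotype label.

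Ligands of this superfamily are trimeric proteins made on the cell surface, some of which are shed, and their receptors signal through TRAF adaptors or death domains. TNF itself is released by activated macrophages and acts on TNFR1 (Tnfrsf1a), which nearly all cells carry, and on TNFR2 (Tnfrsf1b), which is largely a receptor of immune and endothelial cells. Lymphotoxin beta (Ltb) organizes lymphoid tissue, 4-1BB ligand (Tnfsf9) costimulates T cells, TWEAK (Tnfsf12) acts on tissue cells through Fn14 (Tnfrsf12a) and BAFF (Tnfsf13b) keeps B cells alive. CD40 (Cd40) licenses antigen-presenting cells, Fas triggers apoptosis and OX40 (Tnfrsf4) costimulates activated T cells. In the vessel wall, TNF is known to induce enzymes that break down the matrix.

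Of 8471 barcodes, each with RNA, antibody and hashtag counts, 5857 carried 1 hashtag, and 4871 of these held at most 10% mitochondrial UMIs (unique molecular identifiers, each standing for 1 RNA molecule). Leukocytes made up 4790 of the 4871, with 108 to 804 per mouse and 974383 to 9554735 gene UMIs per mouse. The 2 aneurysm mice were the deepest (8831123 and 9554735 UMIs). No mouse had its own library, so free RNA was shared by all of them. Clusters were named after the marker list that fitted them, and each name below stands for "-like" cells. Thymocytes (203 cells) were 0 to 14.1% of a mouse's leukocytes and Saa3+ myeloid cells (207 cells) 0 to 14.2%. Whether these 2 types lay in the vessel wall was not tested. Macrophages (2099 cells) split into resident macrophages (1189 cells), Ccr2+ inflammatory macrophages led by Il1b, Cxcl2 and Nlrp3 (504 cells), macrophages of low RNA content (376 cells) and 30 others. The Ccr2+ inflammatory macrophages held 0 to 8.22% of the macrophages of a Jak2WT mouse and 2.00 to 7.43% of those of a dilation mouse, but 60.5% and 47.0% of those of the aneurysm mice. Levels are in CPM: a gene's UMIs were added up within a mouse and cell type, divided by the UMIs of all genes in those cells and multiplied by 1000000.

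In the mouse genome (GRCm38, GENCODE vM21 annotation), Ltb (ENSMUSG00000024399, chr17:35194439-35196320, plus strand) and Tnf (ENSMUSG00000024401, chr17:35199381-35202007, minus strand) are neighbours. Tnfsf9 (ENSMUSG00000035678) lies at chr17:57105325-57107757, Tnfsf12 (ENSMUSG00000097328) at chr11:69686250-69695849 and Tnfsf13b (ENSMUSG00000031497) at chr8:10006467-10039072. The receptors are Tnfrsf1a (ENSMUSG00000030341, chr6:125349362-125362484), Tnfrsf1b (ENSMUSG00000028599, chr4:145213463-145246870), Cd40 (ENSMUSG00000017652, chr2:165055627-165072948), Fas (ENSMUSG00000024778, chr19:34290666-34327772) and Tnfrsf4 (ENSMUSG00000029075, chr4:156013843-156016612). All values are counts over whole genes, read from the 3′ end of the transcripts.

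The ligands lay in different mixes of cell types, with Tnf and Tnfsf9 mostly in the same myeloid cells (see the plot of levels by cell type). Of all Tnf UMIs, 37.3% came from the Ccr2+ inflammatory macrophages, which were 10.5% of the leukocytes. Resident macrophages gave another 24.2% of the Tnf UMIs, and Saa3+ myeloid cells, which were 4.32% of the leukocytes, gave 18.1%. In mice with at least 10 such cells, inflammatory macrophages held 862 ± 225 CPM of Tnf (SD, n = 5 mice), Saa3+ myeloid cells 649 ± 301 CPM (n = 3), mast cells 436 ± 199 CPM (n = 4) and resident macrophages 299.7 ± 100.0 CPM (n = 10). T cells ended this order with 9.40 ± 7.03 CPM (n = 10). After every cell was thinned to 2000 UMIs, a Tnf UMI was found in 59.6% of the inflammatory macrophages (exact 95% binomial interval 55.2 to 63.9%, 86.9% before thinning). The share was 30.3% of the resident macrophages (27.7 to 33.0%, 59.6% before thinning). B cells, whose share can stand for free RNA, gave 1.88% (0.903 to 3.42%, 7.32% before thinning). Median depths were 12880.5 UMIs per inflammatory macrophage, 9868 per resident macrophage and 5388 per B cell. The intervals cover counting error only, since cells of 1 mouse are not independent.

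**Figure D1:**
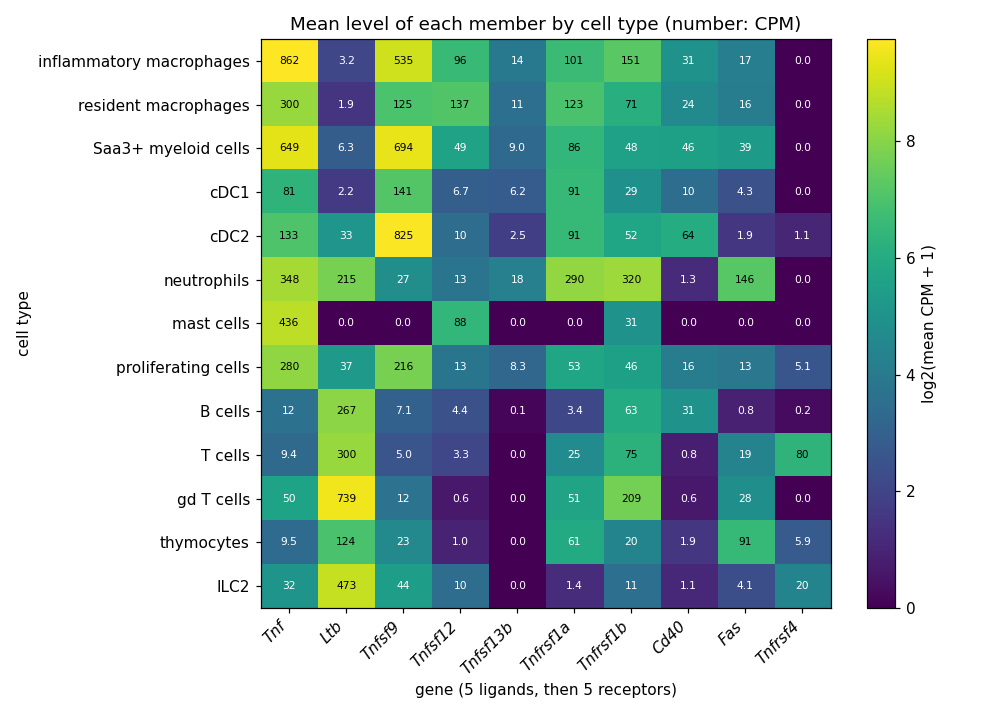
Mean level (CPM over mice with at least 10 cells of the type, colour on a log scale) of the 10 TNF superfamily genes in 13 aortic leukocyte types. Tnf peaked at 862 CPM in Ccr2+ inflammatory macrophages, Ltb at 739 CPM in gd T cells and Tnfsf9 at 825 CPM in cDC2.

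Tnfsf9 was shared by the same myeloid cells and by dendritic cells. Its level was 825 ± 190 CPM in cDC2 (n = 6), 694 ± 218 CPM in Saa3+ myeloid cells (n = 3), 535 ± 231 CPM in inflammatory macrophages (n = 5) and 125 ± 51.1 CPM in resident macrophages (n = 10). A Tnfsf9 UMI was found in 59.3% of the thinned cDC2 and in 1.01% of the thinned T cells. Resident macrophages lay above the next type in the order, ILC2, in 9 of 9 mice that held both, and the exact paired permutation test gave p = 0.00391, the smallest it can give. That difference missed the threshold after adjustment over the 119 neighbouring pairs of types tested for the 10 genes (Benjamini-Hochberg adjusted p = 0.310). None of the 119 pairs passed. With at most 10 mice per pair, no pair could pass alone after this adjustment, even at the smallest p of the test. Missing the threshold therefore does not show that neighbours are alike, and their order is a description.

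Ltb was mainly a lymphoid gene. It was highest in gd T cells at 739 ± 157 CPM (n = 4), followed by ILC2 at 473 ± 85.3 CPM (n = 9), T cells at 299.6 ± 68.2 CPM (n = 10) and B cells at 267 ± 42.9 CPM (n = 9). Neutrophils, a myeloid type, came next at 215 ± 65.2 CPM (n = 3), above thymocytes. After thinning, 35.2% of neutrophils and 35.1% of B cells had an Ltb UMI. Resident macrophages held 1.86 CPM. Among thinned cells 66.2% of gd T cells but 0.421% of resident macrophages (exact 95% interval 0.137 to 0.979%) had an Ltb UMI. Of the Ltb UMIs, 24.2% came from T cells, 22.6% from B cells and 18.9% from gd T cells. Tnfsf12 was mainly a macrophage gene: resident macrophages held 137 ± 17.0 CPM (n = 10), inflammatory macrophages 96.3 ± 33.7 CPM (n = 5), and 53.2% of its UMIs came from resident macrophages. Mast cells held 87.5 ± 65.4 CPM of it (n = 4). Tnfsf12 counts are uncertain, because the annotation places the read-through gene Tnfsfm13 over it on the same strand. Tnfsf13b was sparse, with 320 UMIs in all leukocytes. Its highest mean was 18.1 ± 21.8 CPM in neutrophils (n = 3), then 14.3 ± 6.75 CPM in inflammatory macrophages (n = 5) and 10.7 ± 3.38 CPM in resident macrophages (n = 10). No Tnfsf13b UMI was found in T cells, gd T cells, ILC2, NK cells or thymocytes, where a count of 0 allows a level of up to 0.914 CPM (T cells) to 5.06 CPM (NK cells).

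**Figure D2:**
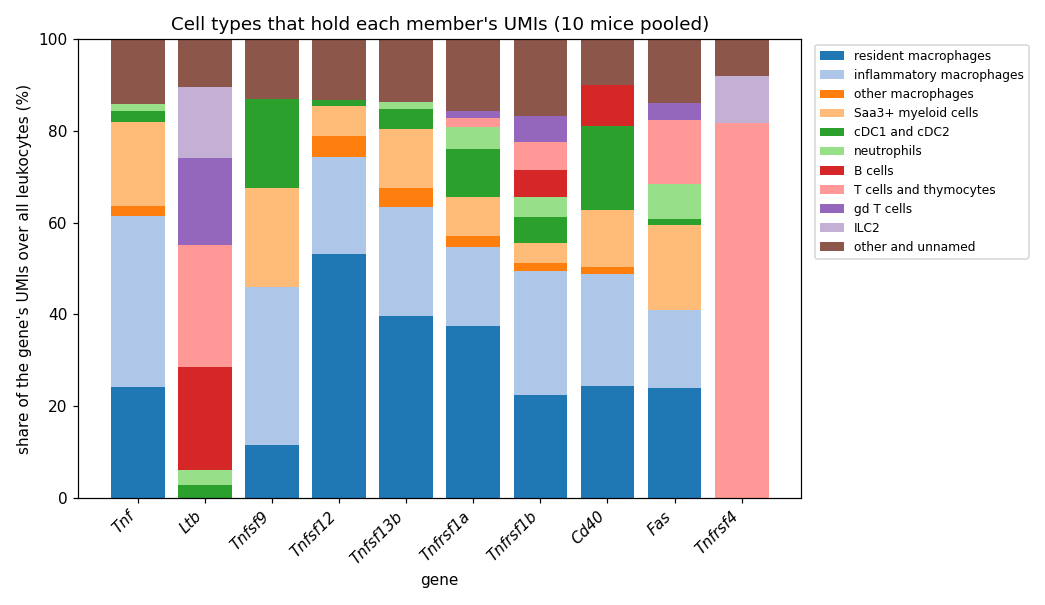
Share (percent, stacked bars) of the UMIs of each TNF superfamily gene that came from each aortic cell type, with the 10 mice pooled. Macrophage subsets and Saa3+ myeloid cells gave most of Tnf and Tnfsf9, lymphoid cells most of Ltb, and T cells 81.7% of Tnfrsf4.

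The receptors were spread more widely, with the exception of Tnfrsf4. Both TNF receptors were highest in neutrophils, at 290 ± 71.4 CPM for Tnfrsf1a and 320 ± 163 CPM for Tnfrsf1b (n = 3 mice each). Tnfrsf1a followed in resident macrophages at 123 ± 11.0 CPM (n = 10) and inflammatory macrophages at 101 ± 15.2 CPM (n = 5), and was low in B cells (3.38 CPM) and ILC2 (1.38 CPM). Tnfrsf1b instead followed in gd T cells at 209 ± 42.6 CPM (n = 4) and inflammatory macrophages at 151 ± 33.2 CPM (n = 5). T cells held 75.2 ± 41.0 CPM, resident macrophages 70.8 ± 11.7 CPM and B cells 62.9 ± 14.9 CPM of Tnfrsf1b. T cells lay above B cells in Tnfrsf1a in 8 of the 9 mice that held both (exact paired permutation p = 0.00781, adjusted p = 0.310).

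Antigen-presenting cells carried Cd40, with 64.4 ± 39.1 CPM in cDC2 (n = 6), 45.6 ± 21.0 CPM in Saa3+ myeloid cells (n = 3), 31.4 ± 13.6 CPM in inflammatory macrophages (n = 5) and 31.3 ± 11.2 CPM in B cells (n = 9). None of 397 thinned T cells held a Cd40 UMI, which allows a share of up to 0.756% of cells with a UMI at that depth, and 0.741% held one before thinning. Fas was highest in neutrophils at 146 ± 72.9 CPM (n = 3) and thymocytes at 91.2 ± 30.2 CPM (n = 4), and low in B cells (0.849 CPM). Its ligand gene Fasl was nearly absent from macrophages, with 3 UMIs, and reached 370 CPM in NK cells of 2 mice. Which type was highest held in 18 of 18 alternative settings for Tnfrsf4 and Tnfsf12, in 17 for Tnf and in 16 for Ltb. It held in 11 or 12 of the 18 for the other 6 genes, whose first places rest on types with few cells.

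T cells gave 81.7% of the Tnfrsf4 UMIs while making up 8.46% of the leukocytes. Their level was 79.9 ± 85.2 CPM (n = 10), and the SD exceeded the mean. Within T cells, Tnfrsf4 followed the surface proteins CD4 and CD8a. The 189 CD4+ CD8a- cells held 252 of the UMIs (189 CPM), and the 177 CD8a+ cells held 2 (1.17 CPM). Of the T cells, 6 had a UMI of Foxp3, the transcription factor of regulatory T cells, and these 6 held 102 of the 255 Tnfrsf4 UMIs, or 1923 CPM against 47.4 CPM in the other 399. Macrophages held no Tnfrsf4 UMI in any of the 10 mice, which allows a level of up to 0.145 CPM (3 UMIs over all macrophages).

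Genes whose levels rose and fell with those of a member over the 13 types were ranked by Pearson's r of log2 levels, over 9672 genes, as a description over types that share 1 pool. Klf10 came closest to Tnf (r = 0.94), Vps37b to Ltb (0.93), Tmem51 to Tnfsf9 (0.93), Camk1 to Tnfsf12 (0.96) and Tgfbi to Tnfsf13b (0.95). Among the receptors, Foxn2 came closest to Tnfrsf1a (r = 0.93), Fgd3 to Tnfrsf1b (0.93), Cd86 to Cd40 (0.93), Ccpg1 to Fas (0.92) and Ccl5 to Tnfrsf4 (0.91). NK cells were not among the 13 types, because too few mice had enough of them. Ccl5 led their cluster, yet they held no Tnfrsf4 UMI, so the closeness of Ccl5 to Tnfrsf4 holds only without them. Cd86 encodes a costimulatory ligand of antigen-presenting cells.

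Over all leukocytes, no member passed the test between the genotypes. The edgeR quasi-likelihood test called 0 of 10492 genes (0%) at a Benjamini-Hochberg adjusted p of 0.05, DESeq2 called 39, and 1094 (10.4%) had an unadjusted p below 0.05, as did 2 of the 10 members, Ltb and Tnfrsf1b. In sums over mixed cells, fewer cells of a type and less RNA per cell cannot be told apart. Tnf read 213.9, 194.1, 146.4, 143.7 and 415.6 CPM in Jak2WT mice 1 to 5. It read 229.5, 247.0 and 297.6 CPM in dilation replicates 1 to 3 and 470.9 and 407.4 CPM in aneurysm replicates 1 and 2. Jak2WT mouse 5 lay among the aneurysm mice, while the other 4 Jak2WT mice lay below all Jak2V617F Myel mice. The genotypes differed by 0.55 ± 0.33 on the log2 scale for Tnf (SE, adjusted p = 0.579) and by 0.80 ± 0.46 for Tnfsf9 (adjusted p = 0.571).

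Tnfsf9 showed the same outlying mouse. Its levels were 109.6, 143.5, 66.9, 140.6 and 381.6 CPM in Jak2WT mice 1 to 5, 190.8, 158.9 and 291.4 CPM in the dilation mice and 456.2 and 392.2 CPM in the aneurysm mice. Jak2WT mouse 5 also had the largest share of Saa3+ myeloid cells of all 10 mice, 14.2% of its leukocytes. Those cells gave 42.5% of the Tnf UMIs and 50.5% of the Tnfsf9 UMIs of the Jak2WT mice together. In the aneurysm mice, inflammatory macrophages gave 65.1% of the Tnf UMIs and 58.1% of the Tnfsf9 UMIs, and Saa3+ myeloid cells were 0.249% and 0.253% of the leukocytes.

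**Figure D3:**
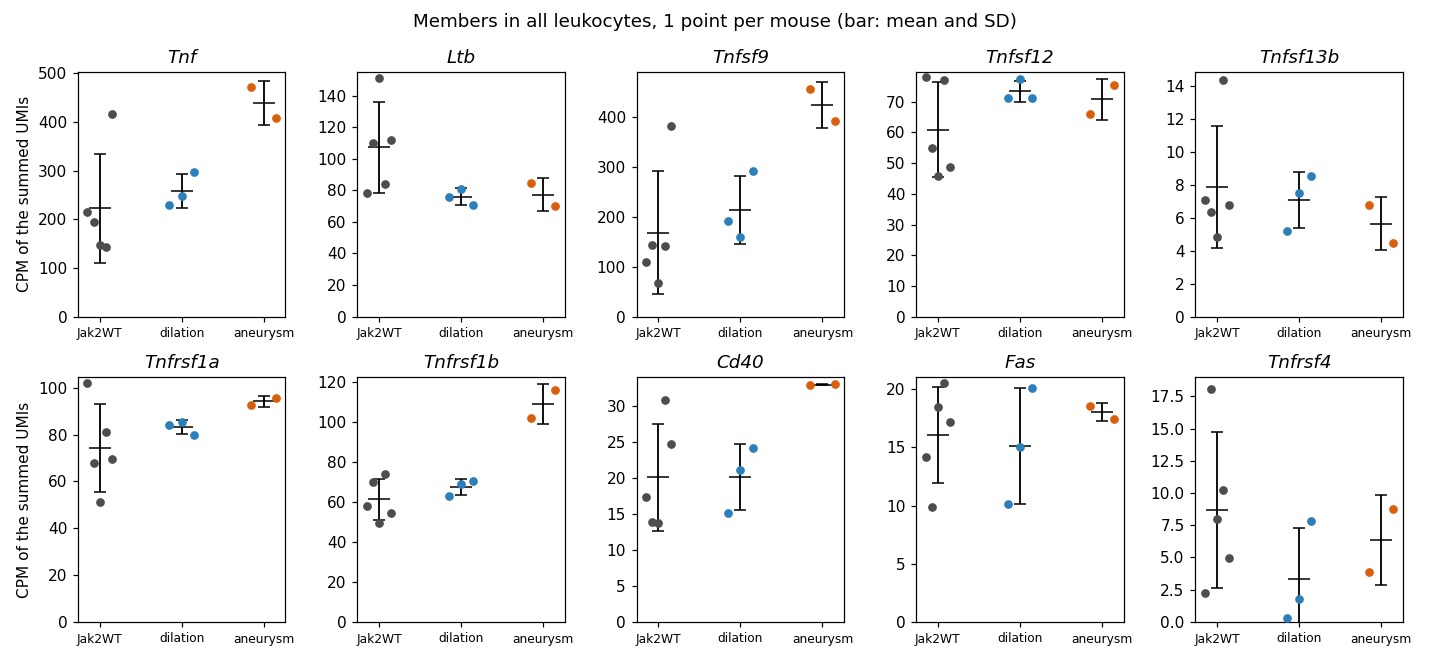
Level (CPM, linear axes from 0) of the 10 TNF superfamily genes over all aortic leukocytes of each mouse, with the mean and SD of the 5 Jak2WT, 3 dilation and 2 aneurysm mice. Tnf and Tnfsf9 were high in both aneurysm mice and in Jak2WT mouse 5 (416 and 382 CPM).

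Ltb was the member with the smallest unadjusted p between the genotypes. It read 78.5, 110.2, 150.9, 84.2 and 112.2 CPM in Jak2WT mice 1 to 5, 76.0, 81.2 and 70.5 CPM in the dilation mice and 84.6 and 70.0 CPM in the aneurysm mice. Of the Jak2V617F Myel mice, 3 lay below every Jak2WT mouse and the other 2 among the lowest Jak2WT mice, so the groups overlapped. The log2 difference was -0.49 ± 0.16 (adjusted p = 0.361), and -0.51 ± 0.20 for dilation alone (adjusted p = 0.995). B cells, a main source of Ltb, were 7.41 to 25.7% of the leukocytes in Jak2WT mice, 7.67 to 13.7% in dilation mice and 5.85% and 1.52% in aneurysm mice. When every mouse was given the same shares of broad cell classes, Ltb averaged 97.6 CPM in Jak2V617F Myel and 93.1 CPM in Jak2WT mice. This was a log2 difference of 0.03 (exact permutation p = 0.857). T cells, gd T cells and thymocytes formed a joint class, so shifts among them remained. Of the leukocytes, gd T cells were 7.34% and 5.58% in aneurysm and 1.43 to 1.70% in dilation mice. The mean of the Jak2V617F Myel mice joins values on both sides. With equal class shares, Ltb averaged 79.8 CPM in dilation (log2 -0.22 against Jak2WT, exact permutation p = 0.107). It averaged 124 CPM in aneurysm mice (log2 0.63 against dilation, exact permutation p = 0.10, the smallest that 2 against 3 mice allow).

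The remaining members differed by less between the genotypes or varied too much. Tnfrsf1b lay 0.48 ± 0.19 higher on the log2 scale in Jak2V617F Myel mice (adjusted p = 0.435), with 49.6 to 73.9 CPM in Jak2WT mice and 63.1 to 116.1 CPM in the others. Tnfsf12 gave a log2 difference of 0.27 ± 0.15 (adjusted p = 0.548) and Tnfrsf1a one of 0.25. Tnfrsf4 ranged from 2.22 to 18.1 CPM in Jak2WT and from 0.308 to 8.79 CPM in Jak2V617F Myel mice (log2 difference -0.78 ± 0.63, adjusted p = 0.685). Dilation alone against Jak2WT called 0 of 11361 genes by edgeR (0%; 9 by DESeq2, 547, or 4.81%, at an unadjusted p below 0.05), and 0 members, with 1 member (Ltb) below 0.05 unadjusted. The median log2 difference of the 10 members between the genotypes was 0.26, against -0.02 over all genes tested.

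Between aneurysm and dilation, all leukocytes gave 31 called genes of 11361 (0.273%), none of them a member, while 2 members (Tnfrsf1b and Cd40) were among the 9.55% of genes with an unadjusted p below 0.05. Tnfrsf1b came nearest, with 63.1, 68.8 and 70.4 CPM in the dilation mice and 101.9 and 116.1 CPM in the aneurysm mice. Both aneurysm mice lay above every other mouse of the series. The log2 difference was 0.73 ± 0.17 (adjusted p = 0.154 by edgeR and 0.0128 by DESeq2). Tnf differed by 0.80 ± 0.42 (adjusted p = 0.585), Tnfsf9 by 1.02 ± 0.60 (adjusted p = 0.642) and Cd40 by 0.73 ± 0.32 (adjusted p = 0.515).

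In macrophages, Tnf, Tnfsf9 and Tnfrsf1b rose in aneurysm relative to dilation. These 3 passed the test among the 8 members tested, in a comparison in which edgeR called 944 of 9057 genes (10.4%), 559 of them higher (6.17%) and 385 lower (4.25%). Ltb, with 50 UMIs in all macrophages, and Tnfrsf4, with none, were below the count filter. The median log2 difference of the 8 members was 0.61, against -0.01 over all genes tested.

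Tnf read 289.6, 317.2, 414.9, 228.8 and 355.1 CPM in the macrophages of Jak2WT mice 1 to 5, 378.7, 361.3 and 339.9 CPM in the dilation mice and 763.7 and 572.8 CPM in the aneurysm mice. The dilation mice lay within the Jak2WT range and both aneurysm mice lay above all others. Aneurysm macrophages held 1.95-fold the Tnf of dilation macrophages (log2 0.96 ± 0.20, adjusted p = 0.00635). Tnfsf9 read 67.9, 119.7, 121.5, 236.4 and 198.4 CPM in Jak2WT mice, 146.3, 137.1 and 182.4 CPM in dilation mice and 581.8 and 460.5 CPM in aneurysm mice. It showed the same order of groups and the widest gap, 3.50-fold (log2 1.81 ± 0.34, adjusted p = 0.00354).

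Tnfrsf1b, the receptor among the 3, read 54.3, 82.1, 62.4, 85.8 and 72.4 CPM in Jak2WT macrophages, 86.9, 65.4 and 82.7 CPM in dilation and 109.0 and 129.7 CPM in aneurysm macrophages. Again only the aneurysm mice stood apart, by 1.59-fold from dilation (log2 0.67 ± 0.17, adjusted p = 0.0224). Cd40 missed the threshold, with 21.8 to 23.5 CPM in dilation and 32.9 and 39.9 CPM in aneurysm mice (log2 0.75 ± 0.23, adjusted p = 0.0513). Jak2WT mouse 4, at 43.8 CPM of Cd40, lay above both.

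The other TNF receptor, Tnfrsf1a, kept to a narrow range of 103.5 to 128.5 CPM in Jak2WT, 110.1 to 120.4 CPM in dilation and 105.1 and 105.4 CPM in aneurysm macrophages, and did not pass. Tnfsf12 lay lower in aneurysm (105.5 and 114.5 CPM) than in dilation (135.4 to 149.0 CPM), a log2 difference of -0.31 ± 0.13 that did not pass (adjusted p = 0.152). Fas lay at 22.4 and 17.6 CPM in aneurysm and 11.6 to 16.9 CPM in dilation (log2 0.55, adjusted p = 0.271), and Tnfsf13b at 9.65 and 6.35 CPM against 9.41 to 13.9 CPM (log2 -0.59, adjusted p = 0.274).

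The share of inflammatory macrophages was also highest in both aneurysm mice. When those cells were left out, an alternative added after seeing the data, no member passed. The comparison then lost nearly all its calls: edgeR and DESeq2 each called 2 of 8807 genes (0.0227% by edgeR), and 347 genes (3.94%) but none of the 8 members tested had an unadjusted p below 0.05. Tnf then read 390.9 and 368.8 CPM in aneurysm and 301.0 to 307.2 CPM in dilation (log2 0.30, adjusted p = 1.00), and Tnfsf9 221.0 and 154.7 CPM against 112.5 to 141.0 CPM (log2 0.48, adjusted p = 1.00). Tnfrsf1b read 60.7 and 78.7 CPM against 65.3 to 81.8 CPM, and its log2 difference changed sign to -0.12 (adjusted p = 1.00). The macrophages left in Jak2WT mice held 175.0 to 414.9 CPM of Tnf, a range that included both aneurysm mice. They held 63.4 to 121.5 CPM of Tnfsf9, so both aneurysm mice still lay above all other mice in this gene. Within the inflammatory macrophages, Tnf was 735.6 CPM in Jak2WT mouse 2, 1224 and 697.7 CPM in dilation replicates 1 and 3 and 943.7 and 710.7 CPM in the aneurysm mice. Aneurysm mice lay inside the range of the other 3 mice that had enough of these cells, but those 3 had few. The upper end was set by dilation replicate 1, with 6.90% inflammatory cells among 145 macrophages. The aneurysm mice had 60.5% of 397 and 47.0% of 428. With dilation replicate 1 set aside, aneurysm replicate 1 was the highest, but aneurysm replicate 2 (710.7 CPM) still lay below Jak2WT mouse 2 (735.6 CPM). For Tnfsf9 the 5 values were 151.9, 538.7, 563.3, 756.0 and 667.2 CPM in the same order, with the aneurysm mice highest. No test was run within these cells, since only 1 Jak2WT mouse had enough of them.

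**Figure D4:**
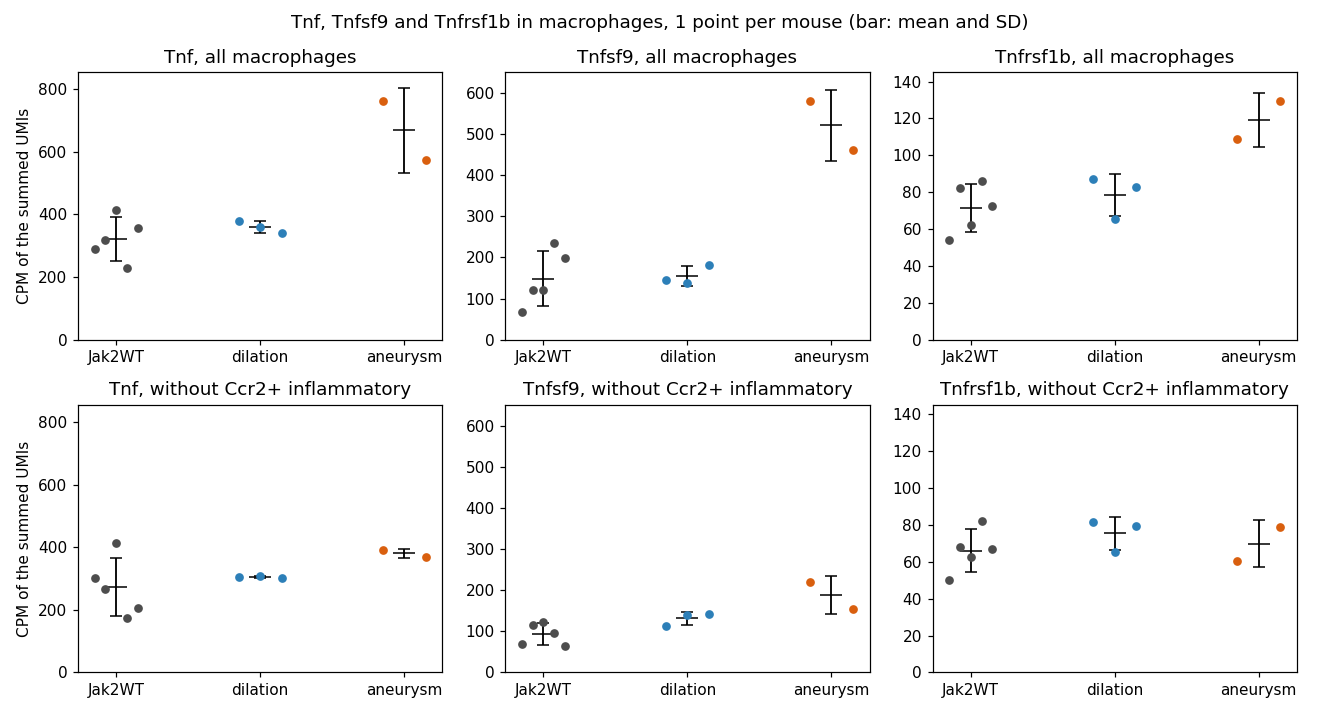
Level (CPM, linear axes from 0) of Tnf, Tnfsf9 and Tnfrsf1b in the aortic macrophages of each mouse, with all macrophages (top row) and without the Ccr2+ inflammatory ones (bottom row). Points are mice and bars the mean and SD of the 5 Jak2WT, 3 dilation and 2 aneurysm mice. The aneurysm mice stand above all others in the top row. In the bottom row Tnf and Tnfrsf1b overlap between the groups, with Jak2WT mouse 3 (415 CPM of Tnf) above both aneurysm mice. Tnfsf9 stays higher in both aneurysm mice than in all others, though its difference from dilation did not pass.

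The promoters of Tnf and Tnfrsf1b are shown because these genes rose together in aneurysm macrophages (Tnfsf9 had no entry). Each is 300 bases of GRCm38.p6 from RefSeq, from 250 bases before the start to 50 after it, printed 5′ to 3′ on the minus strand, at chr17:35201958-35202257 for Tnf and chr4:145246821-145247120 for Tnfrsf1b. Capitals mark a TATAAA match.
Tnf: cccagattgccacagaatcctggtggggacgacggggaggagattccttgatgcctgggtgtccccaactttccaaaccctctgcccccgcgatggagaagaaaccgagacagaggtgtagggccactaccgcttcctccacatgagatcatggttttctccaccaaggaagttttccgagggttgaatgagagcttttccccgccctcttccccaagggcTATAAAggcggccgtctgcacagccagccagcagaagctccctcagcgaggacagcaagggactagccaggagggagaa
Tnfrsf1b: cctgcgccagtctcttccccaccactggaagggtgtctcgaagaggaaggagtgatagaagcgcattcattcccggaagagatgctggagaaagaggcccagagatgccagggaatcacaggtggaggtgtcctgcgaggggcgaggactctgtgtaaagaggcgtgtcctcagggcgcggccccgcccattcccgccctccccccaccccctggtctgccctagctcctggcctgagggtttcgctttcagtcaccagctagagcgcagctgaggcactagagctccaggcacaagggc
Of the 10 members, 7 matched a RefSeq promoter, with 8 promoters in all. Both strands were searched for TATAAA, for TGACTCA (the AP-1 site) and for the NF-κB consensus. TATAAA stood in 13.6% of all 32851 promoters and among the members in that of Tnf. The NF-κB consensus stood in 4.51% of all promoters and in that of Ltb, and TGACTCA in 5.20% and in those of Tnfsf13b and Fas. The Tnfrsf1b window held none of the 3. A match is only a run of letters.

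Most other genes of the pathway were too low to test in macrophages, with 2 of 13 other ligands and 8 of 23 other receptors above the filter. LIGHT (Tnfsf14), a ligand that activates the lymphotoxin beta receptor, rose 6.52-fold in aneurysm from 1.42 to 10.2 CPM (adjusted p = 0.00382). Tnfsf14 lay near the floor in dilation and cleared the count filter with the aneurysm mice, where it was high. Its fold and p are therefore only a description. Tnfrsf12a, the TWEAK receptor, rose 2.69-fold from 17.1 to 44.2 CPM (adjusted p = 0.00224). Tnfrsf17, the plasma cell receptor BCMA, fell from 36.8 to 12.7 CPM (log2 -1.44 ± 0.23, adjusted p = 0.00113). Among 15 adaptors and regulators, all tested, 3 rose and none fell. Traf1, a TRAF adaptor, rose 5.09-fold from 32.3 to 156.9 CPM (adjusted p = 1.92e-05), Traf3 2.10-fold from 6.52 to 13.2 CPM (adjusted p = 0.0195, 0.0673 by DESeq2) and Adam17, the protease that sheds TNF and its receptors, 1.82-fold from 58.0 to 100.7 CPM (adjusted p = 0.00224). Without the inflammatory macrophages none of the other 5 passed (adjusted p = 1.00 each), and Tnfsf14 was below the count filter. In the other 9 comparisons no gene of these lists passed, among them 7 other ligands, 14 other receptors and 15 adaptors tested between the genotypes over all leukocytes.

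Early-response genes, which tissue digestion can induce, moved with the same contrast. Of 10 such genes, all tested, 4 were lower in aneurysm macrophages and none higher: Jun (log2 -1.32), Atf3 (-0.75), Hspa1a (-1.23) and Hspa1b (-1.23). Without the inflammatory macrophages none of these 4 passed (log2 -0.54, -0.29, -0.51 and -0.41). The summed level of the 10 genes was 33288 to 35614 CPM in dilation, 21432 and 20211 CPM in aneurysm and 26141 to 37052 CPM in Jak2WT macrophages. In resident macrophages it was 35781.5 to 37439.8 CPM in dilation and 30546 and 32804.4 CPM in aneurysm mice. Both aneurysm values lay inside the Jak2WT range of 27970.5 to 41391.6 CPM. The part of these genes in the levels of the members was not tested.

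Between the genotypes, macrophages gave 0 called genes of 8205 by edgeR (0%; 68 by DESeq2, 1052, or 12.8%, at an unadjusted p below 0.05), and 0 of 8 members. Before adjustment 3 members were below 0.05. Tnf differed by 0.63 ± 0.24 (adjusted p = 0.299), Tnfsf9 by 1.11 ± 0.44 (adjusted p = 0.311) and Tnfrsf1b by 0.48 ± 0.20 (adjusted p = 0.325) on the log2 scale. Dilation alone against Jak2WT, with the same Jak2WT mice, called 2 of 9057 genes (0.0221%; 8.58% below 0.05 unadjusted) and no member by either measure, with log2 differences of 0.17 for Tnf, 0.11 for Tnfsf9 and 0.17 for Tnfrsf1b.

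Resident macrophages, compared apart from the inflammatory ones, gave 31 called genes of 7877 between the genotypes (0.394%; 12.4% below 0.05 unadjusted), and 0 of 8 members, with 1 (Tnfsf9) below 0.05 unadjusted. Tnfsf9 read 73.6, 117.7, 136.2, 77.8 and 62.3 CPM in Jak2WT, 95.4, 152.5 and 146.7 CPM in dilation and 230.2 and 162.1 CPM in aneurysm mice. The groups overlapped, with both aneurysm mice highest (log2 0.74 ± 0.22, adjusted p = 0.160 by edgeR and 0.0907 by DESeq2). Tnf ranged from 114.3 to 442.2 CPM in Jak2WT and from 284.6 to 403.7 CPM in Jak2V617F Myel mice (log2 0.35 ± 0.23, adjusted p = 0.586). Tnfrsf1b lay at 49.4 to 85.1 and 59.0 to 82.8 CPM in the same groups.

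Outside the macrophages, B cells, T cells and ILC2 were tested between the genotypes, and edgeR called 0 of 3300, 0 of 3145 and 0 of 1852 genes (0% each; 3, 0 and 0 by DESeq2, and 4.33%, 7.09% and 6.21% at an unadjusted p below 0.05). Of the members, 2, 3 and 1 were tested in these types, and only T-cell Tnfrsf1b was below 0.05 before adjustment. In T cells, Tnfrsf1b read 48.2, 60.0, 31.1, 51.0 and 59.8 CPM in Jak2WT, 45.5, 75.0 and 90.8 CPM in dilation and 131.6 and 159.3 CPM in aneurysm mice. The aneurysm mice were highest and dilation replicate 1 lay within the Jak2WT range. The genotypes differed 2.08-fold (log2 1.06 ± 0.26), which passed 0.05 only before adjustment (adjusted p = 0.323 by edgeR, 0.609 by DESeq2).

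Tnfrsf1a in T cells lay at 9.64, 21.2, 9.56, 17.0 and 15.6 CPM in Jak2WT, 22.8, 45.0 and 41.7 CPM in dilation and 39.9 and 30.3 CPM in aneurysm mice. These levels rest on 80 UMIs in all, 2 to 17 per mouse, below the count filter and not tested by edgeR. Over all lymphocytes (B, T, gd T and NK cells and ILC2 summed), Tnfrsf1a ranged from 7.99 to 16.9 CPM in Jak2WT and from 16.8 to 35.3 CPM in Jak2V617F Myel mice. Its level was 3.38 CPM in B cells and 51.1 CPM in gd T cells. B cells averaged 16.4% of the leukocytes in Jak2WT, 11.3% in dilation and 3.68% in aneurysm mice. A change in the mix of lymphocytes and one per cell cannot be told apart in this sum. The genotype difference in macrophages minus that in lymphocytes was -1.16 on the log2 scale (exact permutation p = 0.00794, the smallest that 5 against 5 mice allow; adjusted p = 0.0794 over the 10 members). For Ltb the same quantity was -0.75 (exact permutation p = 0.0476, adjusted p = 0.238). No member passed.

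In ILC2, 25 of 32 Tnfrsf4 UMIs came from Jak2WT mouse 2, at 129.5 CPM, and the other 8 mice with enough ILC2 held 0 to 24.7 CPM. T-cell Tnfrsf4 ran from 19.3 to 91.8 CPM in Jak2WT, from 0 to 135.0 CPM in dilation and to 65.8 and 292.1 CPM in aneurysm mice (log2 0.95, adjusted p = 0.674). Ltb in T cells differed by -0.33 ± 0.17 (adjusted p = 0.662), and in B cells its means were 251 CPM in Jak2WT and 280 CPM in Jak2V617F Myel mice (log2 difference 0.14 ± 0.16, adjusted p = 1.00).

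Of the member proteins, the antibody panel read CD40 and CD95 (Fas), and it also read CD178 (Fas ligand) and CD137L (the Tnfsf9 protein). Of 73 antibodies with counts, edgeR called none between the genotypes in macrophages (0%; 6 at an unadjusted p below 0.05). Surface CD40 on macrophages was 1.04, 1.79, 1.05, 1.92 and 1.29 counts per cell in Jak2WT mice, 3.11, 2.85 and 3.05 in dilation and 2.01 and 2.59 in aneurysm mice. In these unscaled counts, every Jak2V617F Myel mouse lay above every Jak2WT mouse. How many of the 73 antibodies separated the genotypes in this way was not counted. Scaled for antibody depth by TMM, the log2 difference was 0.45 ± 0.21 (adjusted p = 0.448).

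CD95 went the same way, at 0.934 to 2.16 counts per cell in Jak2WT and 2.64 to 3.04 in Jak2V617F Myel mice (log2 0.32 ± 0.21, adjusted p = 0.599). So did CD137L, at 0.251 to 0.397 against 0.565 to 1.28 counts per cell (log2 0.67 ± 0.23, adjusted p = 0.448). Control antibodies with no target moved too. The hamster isotype ran from 0.192 to 0.390 counts per cell in Jak2WT and from 0.350 to 0.752 in Jak2V617F Myel mice. The counts per cell include the macrophages of low RNA content. These were 25.3 to 33.8% of the macrophages in Jak2WT, 13.1 to 18.7% in dilation and 10.8 and 11.2% in aneurysm mice. Scaled per cell alone, CD40 (log2 0.94, adjusted p = 0.0137) and CD95 (log2 0.81, adjusted p = 0.0149) passed. Scaled by the isotype controls, neither did (0.22 and 0.10, adjusted p = 0.746 and 0.890). The genotypes carried different fluorescent CD45.2 antibodies, and staining and genotype cannot be told apart.

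On resident macrophages, where 4.11% of the antibodies were called and none of CD40, CD95 and CD178 was, surface CD40 lay at 1.17 to 2.27 counts per cell in Jak2WT and 3.36 to 3.67 in Jak2V617F Myel mice (log2 0.57 ± 0.21, adjusted p = 0.194). Isotype controls on the same cells gave log2 differences of 0.60 (hamster), 0.44 (rat IgG1) and 0.79 (rat IgG2b). The CD40 difference lay within their range. In counts per cell, the hamster control did not overlap between the genotypes either (0.195 to 0.402 in Jak2WT, 0.436 to 0.870 in Jak2V617F Myel mice). Nor did rat IgG1 (0.185 to 0.287 against 0.317 to 0.688), while rat IgG2b overlapped. Between aneurysm and dilation, where 2.74% of the antibodies were called in macrophages, surface CD40 gave a log2 difference of -0.35 (adjusted p = 0.706) while the Cd40 transcript gave 0.75, and neither passed. CD178 varied from 0.50 to 3.31 counts per cell on macrophages, which held 3 Fasl UMIs.

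**Figure D5:**
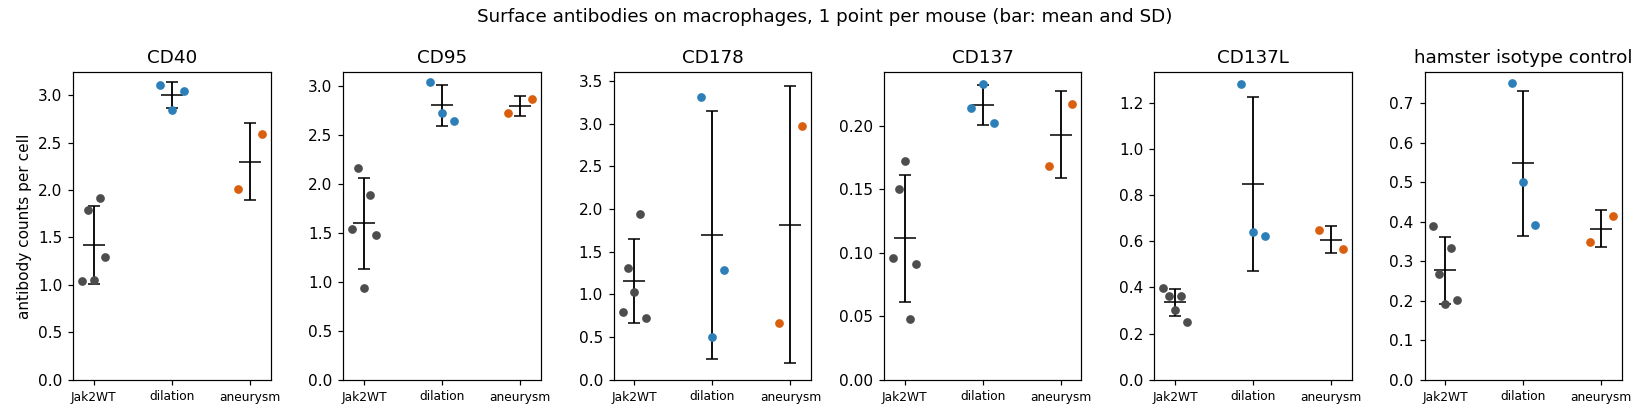
Surface antibody level on aortic macrophages of each mouse (counts per cell, linear axes from 0) for CD40, CD95, CD178, CD137, CD137L and the hamster isotype control, with the mean and SD of the 5 Jak2WT, 3 dilation and 2 aneurysm mice. In these counts, not scaled for depth, CD40, CD95 and CD137L did not overlap between the genotypes. How many of the other antibodies did so was not counted. The isotype control also lay higher in most, and none of 73 antibodies was called between the genotypes.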

How the data were processed

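CITE-seq cells from 10 aortas were grouped by mouse as the labels name the hashtags. The authors deposited raw UMI counts per barcode for genes, antibodies and hashtags (Single Cell 3′ v3 chemistry, Cell Ranger 6.0.2, mm10, per the methods and labels). The labels also list Seurat 3.0.0. Hashtags were assigned with HTODemux at the 0.99 quantile (Seurat 5.3.0, R 4.3.3), and barcodes with several (2265) or no hashtags (349) were dropped, which is the only treatment of doublets. A further 986 barcodes above 10% mitochondrial UMIs were removed. Cells were clustered without the superfamily genes (2000 features, 20 components, resolution 0.3, and 0.8 within macrophages). Non-leukocytes (47) and platelets (34) were left out. Mixed or unmatched clusters (215 cells) stayed unnamed, and count among the leukocytes. The resident macrophages include a sub-cluster of 438 cells led by early-response genes and one of 280 cells for which another marker list scored highest.

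UMIs were summed per mouse and cell type in mice with at least 10 cells. edgeR 4.0.16 (quasi-likelihood test, TMM, filterByExpr) was fitted to all genes, with Benjamini-Hochberg adjustment over the genes tested and a threshold of 0.05. Aneurysm, dilation and Jak2WT mice shared 1 fit for dilation against Jak2WT and aneurysm against dilation, so these comparisons share the dilation mice. DESeq2 1.42.0 was an alternative. The edgeR fit was tested on simulated counts for 2 comparisons, and the permutation tests on known answers. Other steps were not tested in this way. Of simulated 2-fold changes, 54.7% were recovered for aneurysm against dilation in macrophages and 63.9% between the genotypes over all leukocytes. All p-values rest on few animals. In the shared fit the spread was estimated over the mice of all groups together. With 2 aneurysm mice, its p-values say little about the spread among aneurysm animals. Cell type levels were compared between neighbours with exact paired permutation tests on log2(CPM + 1). Depth was 140825 to 1195804 antibody counts and 974383 to 9554735 gene UMIs per mouse, so low genes are least precise in the shallowest mice. Named genes were the members, the listed pathway genes that passed the test, and the closest genes by level across types. The members, marker lists and pathway lists were chosen with earlier results of these data known. Alternatives covered normalization, count filter, hashtag caller, mitochondrial limit, resolution, lineage mixing, cell minimum, antibody scaling, equal shares of broad cell classes and leaving out each mouse. Positions are those of GENCODE vM21 and promoters those of RefSeq GRCm38.p6.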

Additional observations from a re-analysis of the deposited data

Results flagged for a closer look

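Values far from their group were sought in 38 sets, each of the 5 mice of a genotype, with dilation and aneurysm mice joined. Of these sets, 5 held one, against about 1 in 20 expected by chance. Macrophages are part of the leukocytes, so the sets are not independent. Over all leukocytes, Jak2WT mouse 5 stood above the other Jak2WT mice in Tnf (416 CPM, next 214 CPM) and in Tnfsf9 (382 CPM, next 143 CPM), and 14.2% of its leukocytes were Saa3+ myeloid cells. Jak2WT mouse 4, the mouse with the fewest leukocytes (108, of which 63 macrophages), stood above the other Jak2WT mice in Tnfsf13b over all leukocytes (14.4 CPM, next 7.10 CPM) and in macrophages (26.7 CPM, next 13.4 CPM), both from 14 UMIs. It also stood above them in macrophage Cd40 (43.8 CPM, next 23.6 CPM, 23 UMIs). The part of cell number and of the Saa3+ share in these values was not tested.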

How the results depend on the processing

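Aneurysm and dilation were compared with 2 and 3 mice of 1 pool, and 944 genes separated them in macrophages, so a called member is 1 of many. In macrophages Tnfsf9 passed in 21 of 22 alternatives, Tnf in 20, Tnfrsf1b in 17 and Cd40 in 9. Leaving out 1 mouse gave 1 to 4 called members there, and 1 (Tnfsf9) without aneurysm replicate 1, when Tnf was at 0.74 (adjusted p = 0.107) and Tnfrsf1b at 0.79 (adjusted p = 0.0592). Tnfrsf1b was also lost without aneurysm replicate 2 (adjusted p = 0.206), dilation replicate 2 (0.0864) or dilation replicate 3 (0.0513), Tnfsf14 without aneurysm replicate 2 (0.0761), Atf3 with either aneurysm mouse left out, and Traf3 with DESeq2 or with either aneurysm mouse or dilation replicate 1 or 3 left out. With no count filter 5 members passed (Ltb, log2 2.19, adjusted p = 0.0446, and Cd40 in addition), and without the inflammatory macrophages 0 (2 of 8807 genes in all), with Tnfrsf1b at -0.12. Over all leukocytes the same contrast gave 1 member (Tnfrsf1b) by DESeq2, among 167 genes called. It gave 0 to 1 when 1 mouse was left out (Tnfrsf1b without Jak2WT replicate 3, adjusted p = 0.0444). Between the genotypes in macrophages, a fit of 3 groups called 2 members, Tnf (0.65, adjusted p = 0.0235) and Tnfsf9 (1.01, adjusted p = 0.0406). That fit gave the aneurysm and the dilation group equal weight, although the aneurysm group had fewer mice. In resident macrophages, no count filter called 1 (Tnfsf9, adjusted p = 9.20e-04), MULTIseqDemux 2 (Tnf 1.13 and Tnfsf9 1.38, in 897 cells) and a 5% mitochondrial limit 1 (Tnf 1.35, in 661 cells). In the other types, no count filter called 3 (T-cell Tnfrsf1b and Tnfrsf4, ILC2 Tnfrsf4), and sums of at least 20 cells 1 (ILC2 Tnfrsf4, adjusted p = 0.0113). How many of all genes were called was not counted in these alternatives, apart from DESeq2 and the fit without inflammatory macrophages. Antibodies scaled by cells gave 2 calls, CD40 and CD95 on macrophages. The causes of these changes were not tested. The fits without a filter also test genes of lower counts, but members that the main fit had tested changed too. For macrophage Tnfsf9 in aneurysm against dilation, edgeR gave an adjusted p of 0.00354 with the filter (log2 1.81). Without the filter it gave 9.92e-27 (log2 1.84).

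Directions that changed were all of values that had not passed, other than that of Tnfrsf1b. Cd40 between the genotypes in resident macrophages was at -0.083 with MULTIseqDemux, -0.0058 at resolution 1.2 and -0.0029 without the early-response sub-cluster. Tnfrsf4 in aneurysm against dilation over all leukocytes was at -0.46 without cells with markers of 2 lineages, which also moved CD178 between the genotypes to 0.049 and CD95 in aneurysm against dilation to 0.050. CD178 between the genotypes over all leukocytes was at 0.32 scaled by cells, and CD95 scaled by isotypes was at -0.0079 between the genotypes and at 0.11 in aneurysm against dilation. Ltb between the genotypes was at 0.033 with equal shares of broad cell classes, and Tnfsf13b in macrophages at 0.011 without the inflammatory macrophages. With 1 mouse left out, these ranges crossed 0: Tnfsf9 in dilation against Jak2WT (-0.084 to 0.32 in macrophages, -0.0080 to 0.92 over all leukocytes), Fas in macrophages in dilation (-0.015 to 0.36), Tnfsf13b between the genotypes over all leukocytes (-0.29 to 0.059) and CD178 (-0.62 to 0.11 between the genotypes, -1.35 to 1.09 in aneurysm against dilation, -1.17 to 0.97 in macrophages). In the type where each gene's thinned share was highest, the unthinned share left the interval of the thinned one for 9 of 10 genes, reaching 33.3% for Fas in neutrophils and 96.8% for Ltb in gd T cells. No paired analysis was possible because equal numbers in the labels of different groups name different animals.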

Other observations

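The surface protein of Tnfsf9 and its transcript were ordered differently over the cell types. The CD137L antibody gave 1.87 ± 1.92 counts per cell (SD, n = 4 mice, 0.1 to 4.6) on mast cells. Tnfsf9 was listed at 0 CPM in every mouse with at least 10 of these cells. Mast cells were shallow (median 2821 UMIs), and 1.54% of them held a Tnfsf9 UMI before thinning. The antibody gave 0.280 counts per cell on cDC2, the type with the highest Tnfsf9 level (825 CPM). On Ccr2+ inflammatory macrophages CD137L averaged 1.83 ± 3.12 counts per cell (SD), and 1 mouse reached 7.40. Surface CD40 was closer to its transcript in lymphoid cells, with 2.86 ± 0.55 counts per cell on B cells, 0.146 on T cells and 0.131 on ILC2, but cDC2, highest in Cd40 transcript, gave 1.01 counts per cell and resident macrophages 2.59. CD95 was highest on Saa3+ myeloid cells (4.78 ± 0.92 counts per cell), on which the hamster isotype control also reached 1.04 counts per cell. The mean of CD178 over mice lay between 0.392 and 2.04 counts per cell in every cell type. Single mice ran more widely, from 0.1 on mast cells and cDC2 to 3.70 on resident macrophages.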
